A study of Mus musculus with 16 samples.

Results

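The proteasome subunit genes were taken as every protein-coding gene whose symbol is Psma, Psmb, Psmc or Psmd followed by a number, and 39 of the 55385 genes in the count table met this rule. They were measured by short-read RNA-Seq in 8 mouse tissues, namely heart, lung, liver, kidney, spleen, muscle and the white and brown adipose tissues. Male C57BL/6 mice, acquired at 12 weeks of age and kept on standard chow, were either fed without restriction or fasted for 24 h, and the labels name no altered gene in any group. For each tissue, material of the 3 mice of a treatment was combined in equal parts and gave 1 library, so that there were 16 libraries and no replicate within a tissue. The 8 tissues of a treatment came from the same 3 mice. The 16 libraries held 14245178 to 36069968 counts on genes, and the smallest level counted as detected, 3 counts, was 0.0832 to 0.211 CPM, where CPM is a gene's count scaled to the library total.

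The proteasome degrades proteins that carry a ubiquitin chain. Its 20S core is a barrel of outer alpha rings and inner beta rings, and the beta subunits Psmb5, Psmb6 and Psmb7 carry the cutting sites. In cells exposed to interferon, and in many leukocytes, these are replaced by the immune subunits Psmb8, Psmb9 and Psmb10, which favour the production of peptides for MHC class I. The 19S cap, made of a ring of ATPases and of non-ATPase subunits, binds, unfolds and feeds in the substrate. In fasting muscle, ubiquitin-dependent degradation is known to supply amino acids.

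The members were divided by role into 31 standard subunits of the core and cap (7 of the alpha ring, 7 of the standard beta ring, 6 ATPases and 11 non-ATPases), the 3 immune subunits, 3 chaperones of cap assembly (Psmd5, Psmd9 and Psmd10) and the tissue-restricted Psma8 and Psmb11. Of the 39 members, 37 were at 1 CPM or more in all 16 libraries. The exceptions were Psma8, a testis alpha subunit, with at most 1.68 CPM in any library (fed spleen), and Psmb11, the beta subunit of the thymus cortex. Psmb11 was below 3 counts in 15 of the 16 libraries. Exons of 10 members overlap those of another gene, and the strand setting of the counting is not given in the sources used here.

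The standard subunits differed little between tissues on the CPM scale. For each of the 31 standard subunits, the highest of the 8 fed tissues was compared with the lowest, and this ratio had a median of 1.81 and ranged from 1.44 for Psmd4 to 2.80 for Psmb5. Their summed level was highest in fed kidney, at 2838 CPM, and lowest in fed lung, at 1908 CPM. This order depended on the scaling. With TMM factors, which correct for the few genes that dominate some libraries, fed muscle was the highest at 4496 and the highest tissue was 3.46 times the lowest instead of 1.49 times. Between genes, levels scaled by gene length (TPM) had medians over the fed tissues from 28.05 TPM for the cap subunit Psmd11 to 179.4 TPM for the alpha subunit Psma6. The lengths are sums over all annotated exons, so a gene with long rare isoforms appears lower. On the CPM scale the immune subunits varied more, and spleen was the highest and muscle the lowest fed tissue for all 3. Fed spleen exceeded fed muscle 50.6-fold for Psmb8, 74.5-fold for Psmb9 and 12.1-fold for Psmb10. With TMM factors these ratios were 18.9, 27.8 and 4.51, and kidney, not muscle, was the lowest for Psmb10. The highest to lowest ratio was then 5.04 for Psmb10, within the range of the standard subunits, which ran from 2.13 for Psma2 to 7.30 for Psmb7 with a median of 3.47.

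The question put to these data was how the genes respond to fasting in each tissue. A member was called in a tissue when its log2 fold change, fasting against fed with 0.01 CPM added to each level, was above 0.5 in size and Fisher's exact test (two-sided) gave an unadjusted p under 0.01. This test compares the libraries of that tissue, not the conditions. Without replicates the spread between pools is unknown, and if a coefficient of variation of 0.2 between pools was assumed, 2 calls were left: Psmd9 in liver and Psmb11 in lung. Across tissues, all 16 libraries were fitted together with edgeR, with the tissue as a block.

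The 3 immune subunits were lower in the fasting library of every tissue. All 24 gene and tissue values were below 0, from -0.98 for Psmb10 in liver to -0.17 for Psmb9 in spleen. Of the 24, 14 were called, where between 1.62% (spleen) and 9.52% (liver) of all genes tested in a tissue fell. Among genes at 1 CPM or more in either library, between 2.33% (spleen) and 16.4% (muscle) fell. In the fit across tissues the immune subunits were also the only members that passed the test. There 3 of 38 members fell and none rose at an adjusted p under 0.05, where 2.08% of all 17296 genes fell and 2.31% rose. Psmb10, at chr8:105935735-105938444, fell by 0.56 (SE 0.08, edgeR adjusted p = 0.00787). Psmb9, at chr17:34181987-34187764, fell by 0.55 (SE 0.09, edgeR adjusted p = 0.0154), and Psmb8, at chr17:34197721-34201454, fell by 0.50 (SE 0.09, edgeR adjusted p = 0.0173). Each was lower in 8 of 8 tissues. All 3 passed whichever single tissue was left out, but without white and brown adipose together only Psmb10 passed (edgeR adjusted p = 0.0404), while Psmb9 and Psmb8 were at 0.0712 and 0.0686. Coordinates of genes are those of the deposited table, on GRCm38.

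Psmb8, which takes the place of Psmb5, went from 3.90 CPM fed to 2.07 CPM fasting in muscle, 21.2 to 13.02 in liver, 37.1 to 29.9 in white adipose, 27.6 to 15.6 in brown adipose, 13.3 to 11.3 in heart, 198 to 173 in spleen, 11.98 to 7.99 in kidney and 61.9 to 39.0 in lung. It was called in muscle, liver, brown adipose, kidney and lung. Psmb9, which takes the place of Psmb6, went from 1.29 to 1.002 CPM in muscle, 10.5 to 6.41 in liver, 18.5 to 13.3 in white adipose, 10.5 to 6.53 in brown adipose, 8.54 to 4.65 in heart, 96.0 to 85.4 in spleen, 4.72 to 3.26 in kidney and 32.5 to 17.9 in lung. It was called in liver, brown adipose, heart and lung, and in muscle it rested on 31 counts in each library. Psmb10, which takes the place of Psmb7, went from 5.90 to 3.98 CPM in muscle, 19.9 to 10.1 in liver, 28.0 to 20.6 in white adipose, 19.1 to 11.2 in brown adipose, 32.2 to 23.0 in heart, 71.2 to 58.5 in spleen, 10.1 to 6.48 in kidney and 44.9 to 29.0 in lung. It was called in muscle, liver, brown adipose, kidney and lung. In 21 of the 24 cases the 95% counting intervals of the fed and the fasting library did not overlap. None of the 3 was called in spleen. None was called in white adipose on library totals, but with TMM factors Psmb9 (-0.58) and Psmb10 (-0.55) passed there, and Psmb10 in muscle (-0.49) no longer did. That scaling gave 15 calls of 24. With the 10 highest genes left out of the totals Psmb10 also passed in heart (-0.52).

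**Figure D1:**
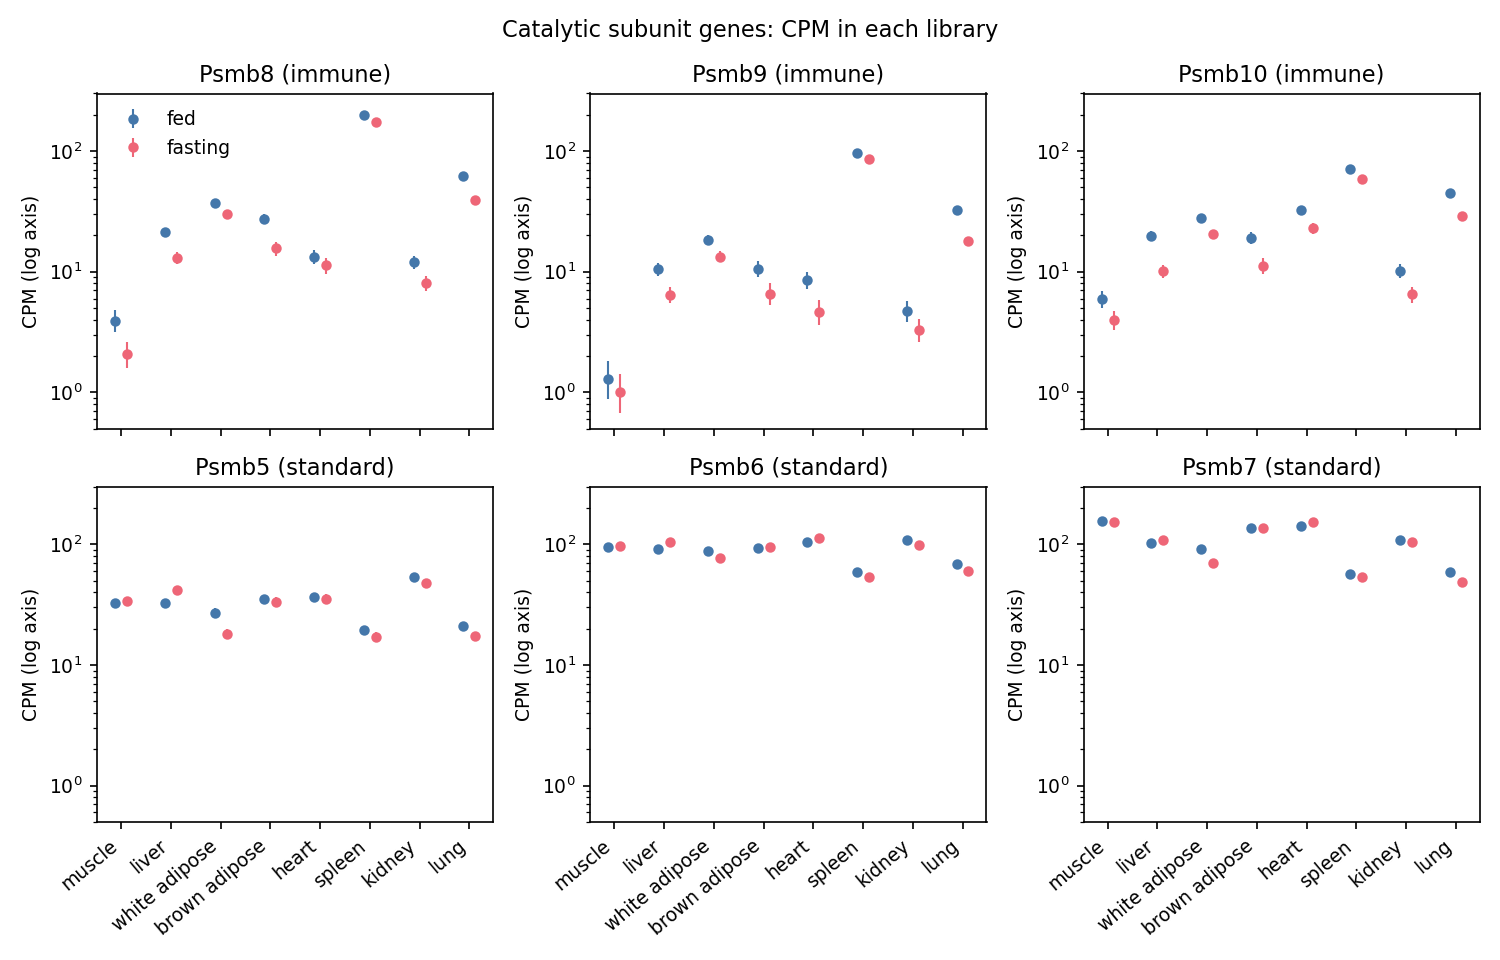
CPM (log axis) of the immune subunits Psmb8, Psmb9 and Psmb10 (top) and of the standard subunits Psmb5, Psmb6 and Psmb7 (bottom) in the fed (blue) and fasting (red) library of 8 tissues, with bars for the 95% Poisson counting interval. For the immune subunits every fasting point lies below the fed point of its tissue, and spleen is highest; the standard subunits stay within a narrow range on this scale.

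Of the standard partners, Psmb5 alone was called, in 1 tissue. Psmb5, the chymotrypsin-like site, went from 32.6 to 33.6 CPM in muscle, 32.7 to 41.8 in liver, 27.2 to 18.2 in white adipose, 35.4 to 33.5 in brown adipose, 36.7 to 35.5 in heart, 19.3 to 17.1 in spleen, 54.1 to 47.8 in kidney and 21.0 to 17.4 in lung. It fell in white adipose. Psmb6, the caspase-like site, and Psmb7, the trypsin-like site, were called in no tissue. Psmb6 had log2 fold changes between -0.20 in lung and 0.21 in liver, and Psmb7 between -0.38 in white adipose and 0.10 in heart. Across tissues the log2 fold changes were -0.07 (SE 0.11) for Psmb5, 0.00 (SE 0.07) for Psmb6 and -0.04 (SE 0.08) for Psmb7.

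The ratio of each immune subunit to its standard partner does not depend on the scaling of the libraries. On the length-scaled values it was lower in fasting in 23 of 24 comparisons, and its counting interval lay below 0 in 17. The median change in log2 ratio over the 8 tissues was -0.40 for Psmb8 to Psmb5, -0.52 for Psmb9 to Psmb6 and -0.57 for Psmb10 to Psmb7. In liver, Psmb8 made up 14.7% of the summed TPM of Psmb8 and Psmb5 in the fed library and 7.64% in the fasting one, and Psmb10 made up 28.2% and 15.7% of its pair. In spleen, where Psmb8 exceeded Psmb5, the share was 73.1% fed and 72.9% fasting, and that of Psmb10 in its pair was 71.5% and 68.8% (change in log2 ratio -0.19, 95% counting interval -0.34 to -0.04). The exception was white adipose, where the share of Psmb8 was 26.6% fed and 30.4% fasting (change in log2 ratio 0.27, 95% counting interval 0.05 to 0.49). There Psmb5 fell by 0.58 and Psmb8 was lower by a smaller step, at -0.31.

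**Figure D2:**
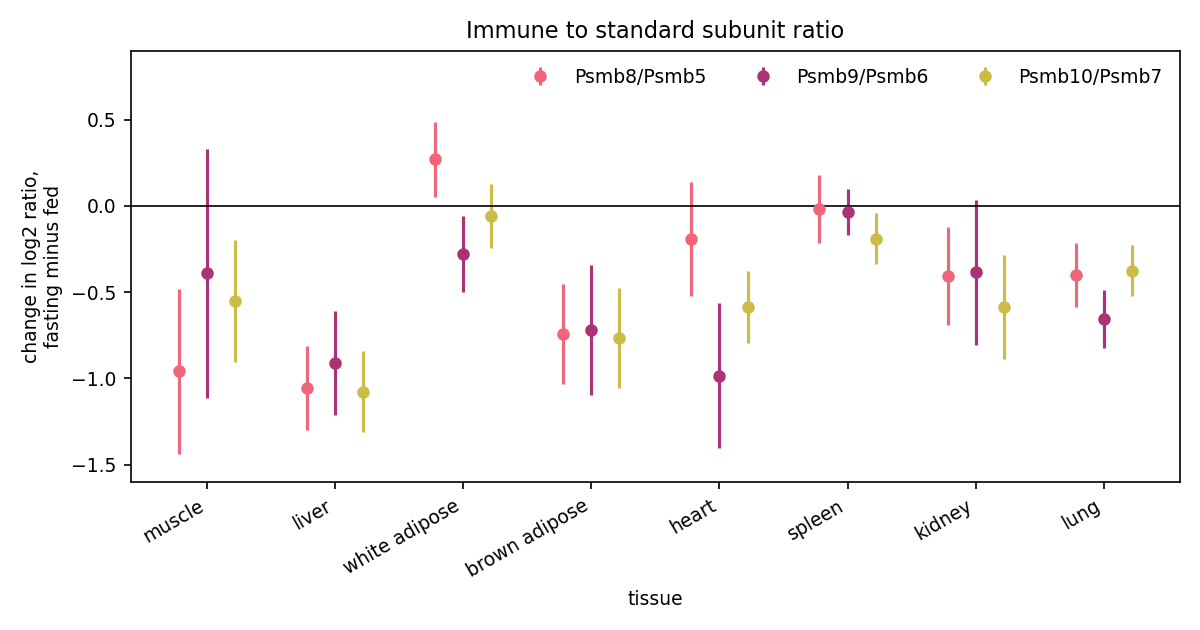
Change in the log2 ratio of each immune subunit to the standard subunit it replaces, fasting minus fed, by tissue, with bars for the 95% counting interval. Liver and brown adipose lie at -0.72 or lower for all 3 pairs, spleen lies between -0.19 and -0.02, and only Psmb8 to Psmb5 in white adipose lies above 0.

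Leukocyte genes were mostly below 0 in fasting, and outside lung some passed the thresholds only in brown and white adipose. Of a list of 10 leukocyte markers, 10 were lower in muscle, spleen and lung, 9 in brown adipose and 8 in liver, white adipose, heart and kidney, and their summed level went from 17.7 to 13.5 CPM in muscle, 52.4 to 42.7 in liver, 59.9 to 39.2 in brown adipose and 6805 to 6244 in spleen. The log2 change of that sum was -0.39 in muscle, -0.30 in liver, -0.33 in white adipose, -0.61 in brown adipose, -0.31 in heart, -0.12 in spleen, -0.18 in kidney and -0.87 in lung. Of the 10 markers 9 fell in lung, 3 in brown adipose, 2 in white adipose and 0 in the other tissues. Of all genes tested, 6.49% fell in lung, 7.58% in brown adipose and 5.84% in white adipose. In the other tissues between 1.62% (spleen) and 9.52% (liver) of all genes tested fell. Between 42.6% (white adipose) and 60.4% (liver and lung) of all genes tested were below 0. The median over the markers was -0.87 in muscle, -0.32 in liver, -0.33 in white adipose, -0.60 in brown adipose, -0.33 in heart, -0.09 in spleen, -0.32 in kidney and -1.01 in lung. The median of the immune subunits was -0.57, -0.71, -0.44, -0.77, -0.49, -0.19, -0.58 and -0.67 in the same tissues, so it was above the marker median in muscle and lung and below it in the other 6. In muscle this order depended on the measure. Only 7 of the 10 markers had a count in fasting muscle, and the immune median there was below the change of the marker sum (-0.39). Against that sum the immune median was above in lung alone. In these bulk libraries fewer cells of a type and less RNA per cell cannot be told apart, and the part of leukocytes in the immune subunit result was not tested. Of 4 macrophage markers, 4 were lower in muscle, liver, brown adipose and heart, 3 in kidney and lung, and 2 in white adipose. In spleen 2 were lower and 2 higher, 1 of them called up, and their sum went from 973 to 1308 CPM.

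The fed lung library held thymus genes. Rag1, which recombines antigen receptor genes, was at 60.9 CPM fed and 0.78 CPM fasting, Dntt at 13.9 and 0.17, and Prss16, a protease of the thymus cortex, at 10.2 and 0.30. The summed level of a list of 8 thymus genes, chosen after their values were seen, was 117 CPM in fed lung and 14.7 CPM in fasting lung, and all 8 were lower. Psmb11 was at 1.76 CPM (53 counts) in fed lung and 0.055 CPM (2 counts) in fasting lung, a log2 fold change of -4.76 (95% counting interval -6.80 to -2.72). It was the only library with 3 or more counts of this gene. The leukocyte gene Ptprc went from 373 to 194 CPM in lung. The part of these genes in the lung values of the immune subunits was not tested. Without lung, 11 of 21 immune values were called instead of 14 of 24, and the fit without lung still called all 3 genes.

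In muscle, 9 members rose and 3 fell, where 4.42% of all genes tested rose and 9.39% fell. Of genes that reached 1 CPM in either library, 7.8% rose and 16.4% fell, beside 23.7% and 7.89% of the members. With TMM or DESeq2 size factors 15 members rose and 1, Psmb8, fell. All 9 that rose on library totals were standard subunits, and 7 of them were called up in no other tissue (a difference between tissues was not tested). The count of 7 is for library totals only, since with TMM factors 7 members rose in liver instead of 2. Of the 31 standard subunits, 30 were higher in fasting muscle, with a median log2 fold change of 0.41, and 31 were higher with TMM factors. In muscle, genes that reached 1 CPM had a median of -0.14. Of 4 cardiomyocyte markers, 4 were lower in fasting muscle and 2 fell, and their sum went from 32.3 to 20.4 CPM. Of 4 adipocyte markers, 3 were lower and 2, Adipoq and Plin1, fell, while their sum went from 148 to 151 CPM. Their part in the muscle values was not tested.

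Psmd11, a lid subunit of the cap at chr11:80428615-80473248, went from 49.6 to 104 CPM in muscle, a log2 fold change of 1.07 (95% counting interval 0.97 to 1.16). Psma5, of the alpha ring, went from 32.9 to 56.5 CPM, and Psmd4, a ubiquitin receptor of the cap at chr3:95032694-95042614, from 102 to 170.0 CPM. The ATPases Psmc2 and Psmc1 had log2 fold changes of 0.69 and 0.54. The cap subunits Psmd8, Psmd12, Psmd7 and Psmd3 had values of 0.69, 0.57, 0.55 and 0.55. By role, 6 of 11 non-ATPases (median 0.55), 2 of 6 ATPases (median 0.46) and 1 of 7 alpha subunits (median 0.27) rose. None of the 7 standard beta subunits passed the threshold (median 0.27). With TMM factors 7 non-ATPases, 4 ATPases, 3 alpha subunits and 1 standard beta subunit, Psmb2, rose. The catalytic ones were near 0, with Psmb5 at 0.04, Psmb6 at 0.03 and Psmb7 at -0.02 (0.06 with TMM factors). The 3 that fell in muscle were Psmb8, Psmb10 and the cap chaperone Psmd10, which went from 5.94 to 4.04 CPM.

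**Figure D3:**
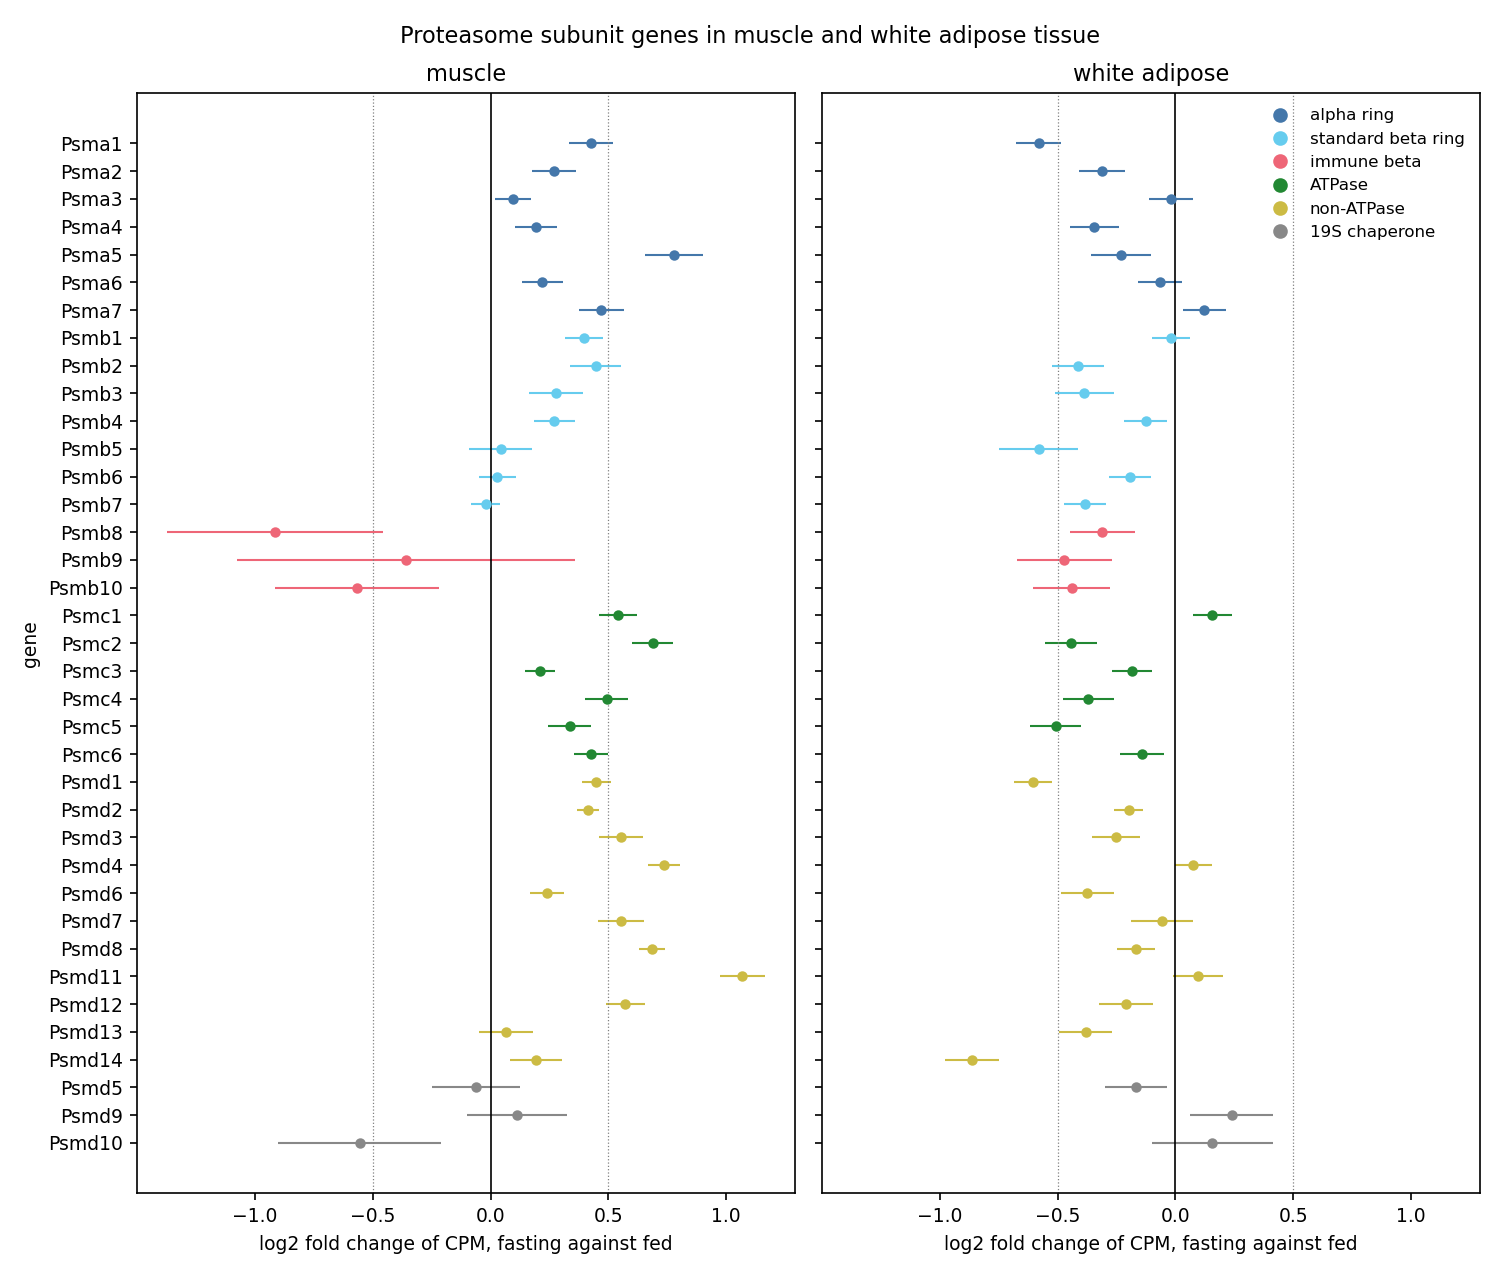
Log2 fold change of CPM, fasting against fed, of 37 members in muscle (left) and white adipose tissue (right), coloured by role, with bars for the 95% counting interval and dotted lines at the threshold of 0.5 in either direction. In muscle 30 of the 31 standard subunits lie above 0 and in white adipose 27 lie below it, and the immune subunits lie below 0 in both panels.

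Promoter sequences from RefSeq (GRCm38.p6), from 250 bases before to 50 after a start site, matched 32 of the 39 members by symbol. They were searched on both strands for 4 motifs, and matches of different motifs overlapped in 0 members. The ETS core CCGGAAG was found in 10 of 25 standard subunits (40%), where 9.93% of all 27025 genes with a promoter held it, and in 0 of 3 immune subunits. It was found in 5 of the 7 standard subunits that rose in muscle on library totals and have an entry, and in 5 of the 18 others. That split depended on the scaling. With TMM factors Psma1, Psma7, Psmb2, Psmc4, Psmc6 and Psmd1 rose in muscle as well, and of these only Psmc6 was among the 10 with the ETS core. The antioxidant response element TGACNNNGC, known to be bound by Nfe2l1 and Nfe2l2, was found in 16% of standard subunits and 14% of all genes, and CCAAT in 40% and 41.1%. The interferon-stimulated response element was found in 8% of standard subunits, 3.99% of all genes and 0 of 3 immune subunits. A match is a description of letters and not a site. The windows below show the ETS core, in capitals, in the 5 subunits that held it and rose in muscle on library totals. They also show the antioxidant element in the catalytic subunits Psmb5 and Psmb6.
Psmc1, chr12:100110164-100110190, minus strand: atcgccaccgCCGGAAGtgcatccacc
Psmc2, chr5:21785181-21785207, minus strand: gagccccatcCCGGAAGtgctcactgg
Psmd4, chr3:95042723-95042749, minus strand: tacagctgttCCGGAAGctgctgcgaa
Psmd11, chr11:80428594-80428620, minus strand: aaacacacacCCGGAAGacccgccctc
Psmd12, chr11:107479501-107479527, minus strand: gtcactcgcaCCGGAAGtcgcccgctc
Psmb5, chr14:54618024-54618052, minus strand: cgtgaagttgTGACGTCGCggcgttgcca
Psmb6, chr11:70525338-70525366, plus strand: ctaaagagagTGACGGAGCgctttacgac

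Psmd4 rose in 4 tissues, more than any other member. It went from 102 to 170.0 CPM in muscle, 86.0 to 142 in liver, 99.5 to 105 in white adipose, 104 to 151 in brown adipose, 88.3 to 132 in heart, 79.6 to 78.6 in spleen, 87.7 to 101 in kidney and 72.1 to 72.0 in lung. It passed the thresholds in muscle, liver, brown adipose and heart. Across tissues its log2 fold change was 0.40 (SE 0.12, edgeR adjusted p = 0.077) and did not pass. Psmd11 rose in muscle, brown adipose (74.4 to 111 CPM) and heart (51.2 to 79.96 CPM), and was at 112 and 109.65 CPM in liver. Its log2 fold change across tissues was 0.30 (SE 0.14, edgeR adjusted p = 0.238). By p, the members after Psmd4 were the ATPase Psmc1 at 0.29 (SE 0.09, edgeR adjusted p = 0.0931) and the alpha subunit Psma7 at 0.25 (SE 0.10, edgeR adjusted p = 0.15). With DESeq2's Wald test Psmd4 and Psmc1 passed, and at an unadjusted p under 0.05 the edgeR fit gave 8 of 38 members (21.1%), the 3 immune ones included, beside 23.8% of all genes tested. The 31 standard subunits had a median of 0.06 across tissues, beside -0.01 for all genes tested.

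**Figure D4:**
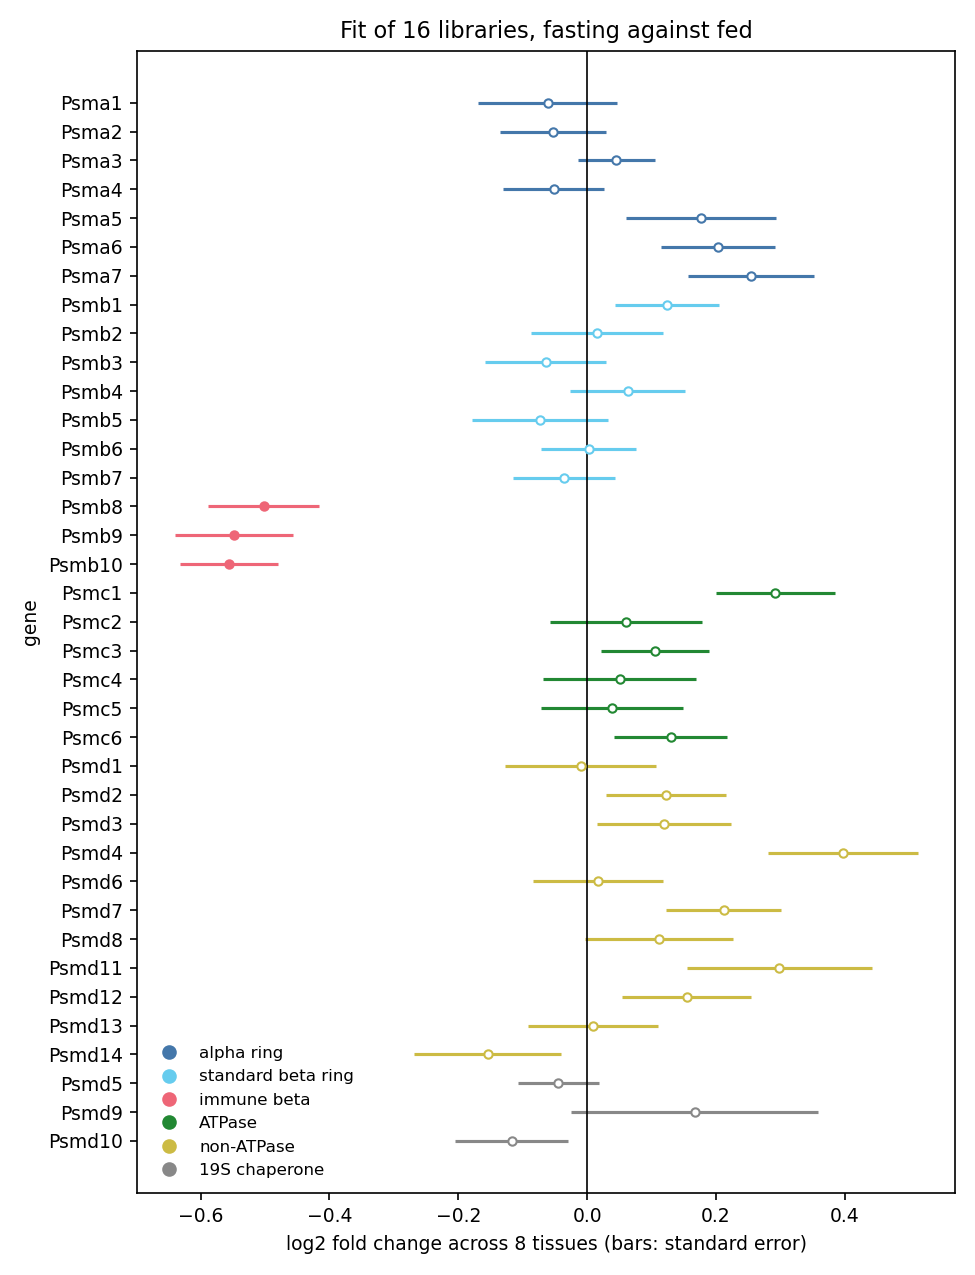
Log2 fold change of 37 members, fasting against fed, from the fit of 16 libraries with the tissue as a block, with bars for the standard error and filled points for an adjusted p under 0.05. Psmb8, Psmb9 and Psmb10 are the only filled points, between -0.56 and -0.50, and the next by p are Psmd4 at 0.40 and Psmc1 at 0.29.

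In liver, 2 members rose and 3 fell (4.46% and 9.52% of all genes, 7.34% and 15.8% of genes that reached 1 CPM). With TMM or DESeq2 size factors 7 members rose. On library totals, those that rose were Psmd4 and the cap chaperone Psmd9, and those that fell were the 3 immune subunits. Psmd9, at chr5:123169413-123250131 on the plus strand, went from 26.1 to 76.3 CPM (600 and 1905 counts), a log2 fold change of 1.55 (95% counting interval 1.42 to 1.68). In the other 7 tissues it lay between -0.41 in heart and 0.24 in white adipose. Hpd, an enzyme of tyrosine breakdown at chr5:123171807-123182727 on the minus strand, lies within the span of Psmd9 without sharing an exon with it, and went from 1385 to 2470 CPM in liver. Its part in the Psmd9 value was not tested. The standard subunits had a median of 0.20 with 23 of 31 higher in fasting liver, and 0.32 with 30 of 31 under TMM factors, a scaling that moved the median of all genes at 1 CPM or more from -0.13 to -0.0017. Of 4 adipocyte markers, 4 were higher in fasting liver and 1, Cidec, was called, and their sum went from 26.9 to 130.5 CPM. Of 4 brown adipocyte markers, Elovl3 alone was called, and their sum went from 541 to 242 CPM. Their part in the liver values was not tested.

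In white adipose, 5 members fell and none rose, where 5.84% of all genes fell and 13.2% rose. Of genes that reached 1 CPM, 9.23% fell and 19.8% rose. With TMM factors 9 members fell. Psmd14, the deubiquitinating enzyme of the cap, went from 67.1 to 36.9 CPM (log2 fold change -0.86, 95% counting interval -0.98 to -0.75). Psmd1, the large scaffold of the cap, went from 123 to 81.1 CPM, Psma1 from 86.0 to 57.5, Psmb5 from 27.2 to 18.2 and the ATPase Psmc5 from 65.0 to 45.7, a call that a pseudocount of 1 CPM ended (-0.499). Of the 31 standard subunits, 27 were lower, with a median of -0.23, while genes that reached 1 CPM had a median of 0.07. With TMM factors these medians were -0.34 and -0.04. Standard subunits passed the threshold downwards in no other tissue, but most were also below 0 in spleen, lung and, on library totals, kidney, and the difference between tissues was not tested. The largest positive values were 0.24 for Psmd9 and 0.16 for Psmd10 and for Psmc1. The summed level of 4 kidney tubule markers was 64.7 CPM in the fed and 744 CPM in the fasting white adipose library. Of 3 cardiomyocyte markers with a count there, 3 were higher and 2 were called up. Of 4 skeletal muscle markers 1 was called up, and their sum went from 160 to 225 CPM. Of 3 lung epithelium markers with a count, 1 was called up. The part of these markers in the white adipose values was not tested.

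In brown adipose, 4 members rose and 3 fell (5.39% and 7.58% of all genes, 8.68% and 12.2% of genes that reached 1 CPM). Psma6 went from 123 to 176 CPM, Psma7 from 73.8 to 108, Psmd4 from 104 to 151 and Psmd11 from 74.4 to 111. The 3 that fell were the immune subunits. The median of the standard subunits was 0.09, with 19 of 31 higher. The summed level of 4 skeletal muscle markers was 2125 CPM in fed and 1007 CPM in fasting brown adipose, and its part was not tested. In heart, Psmd4 and Psmd11 rose and Psmb9 fell, which was 5.26% and 2.63% of the members. Of all genes 4.33% rose and 5.8% fell, and of genes that reached 1 CPM in heart 7.01% rose and 9.65% fell. There 26 of 31 standard subunits were higher, with a median of 0.17. Psma8 was at 0.79 in heart and 0.88 in liver, on at most 36 counts, and was not called. Between the heart libraries the summed level of 4 hepatocyte markers went from 22.8 to 78.4 CPM, with 4 of 4 higher, and that of 4 adipocyte markers from 372 to 832 CPM, with 3 of 4 lower. Their part in the heart values was not tested.

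The remaining tissues showed no rise. In kidney, Psmb8 and Psmb10, 5.13% of the members, fell and none rose (3.93% and 2.77% of all genes). Of genes that reached 1 CPM in kidney, 6.23% fell and 4.48% rose. The standard subunits there had a median of -0.04, which was 0.03 with TMM factors. The highest values in kidney were 0.23 for Psma5 and 0.21 for Psmd7. Of 4 brown adipocyte markers, 3 were higher in fasting kidney and 2 were called up. Of 4 adipocyte markers, 2 were called up and 1 down, and their sum went from 66.2 to 106.5 CPM. Of 4 hepatocyte markers, 1 was called up and 2 down, and their sum went from 1245 to 1640 CPM. Their part in the kidney values was not tested. In lung, the 3 immune subunits and Psmb11, 10.3% of the members, fell and none rose (6.49% and 2.68% of all genes). Of genes that reached 1 CPM in lung, 10.1% fell and 4.23% rose. The standard subunits there had a median of -0.18, with 29 of 31 lower. Psmd7 at 0.10 and Psmd5 at 0.06 were the highest there. The summed level of 4 cardiomyocyte markers went from 879.5 CPM in fed lung to 447 CPM in fasting lung, 4 of 4 fell, and their part in the lung values was not tested. In spleen, no member passed Fisher's test with the fold threshold. Of all genes 2.31% rose and 1.62% fell, and of genes that reached 1 CPM in spleen 3.62% rose and 2.33% fell. All 38 members with a count were lower there, the nearest to 0 being Psma6 at -0.01 (with TMM factors 2 standard subunits were above 0), the standard subunits with a median of -0.12, and the lowest value was -0.68 for Psma8, on 38 and 29 counts. Psmb10 was at -0.28 and Psmd4 at -0.02 (0.00 with TMM factors).

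**Figure D5:**
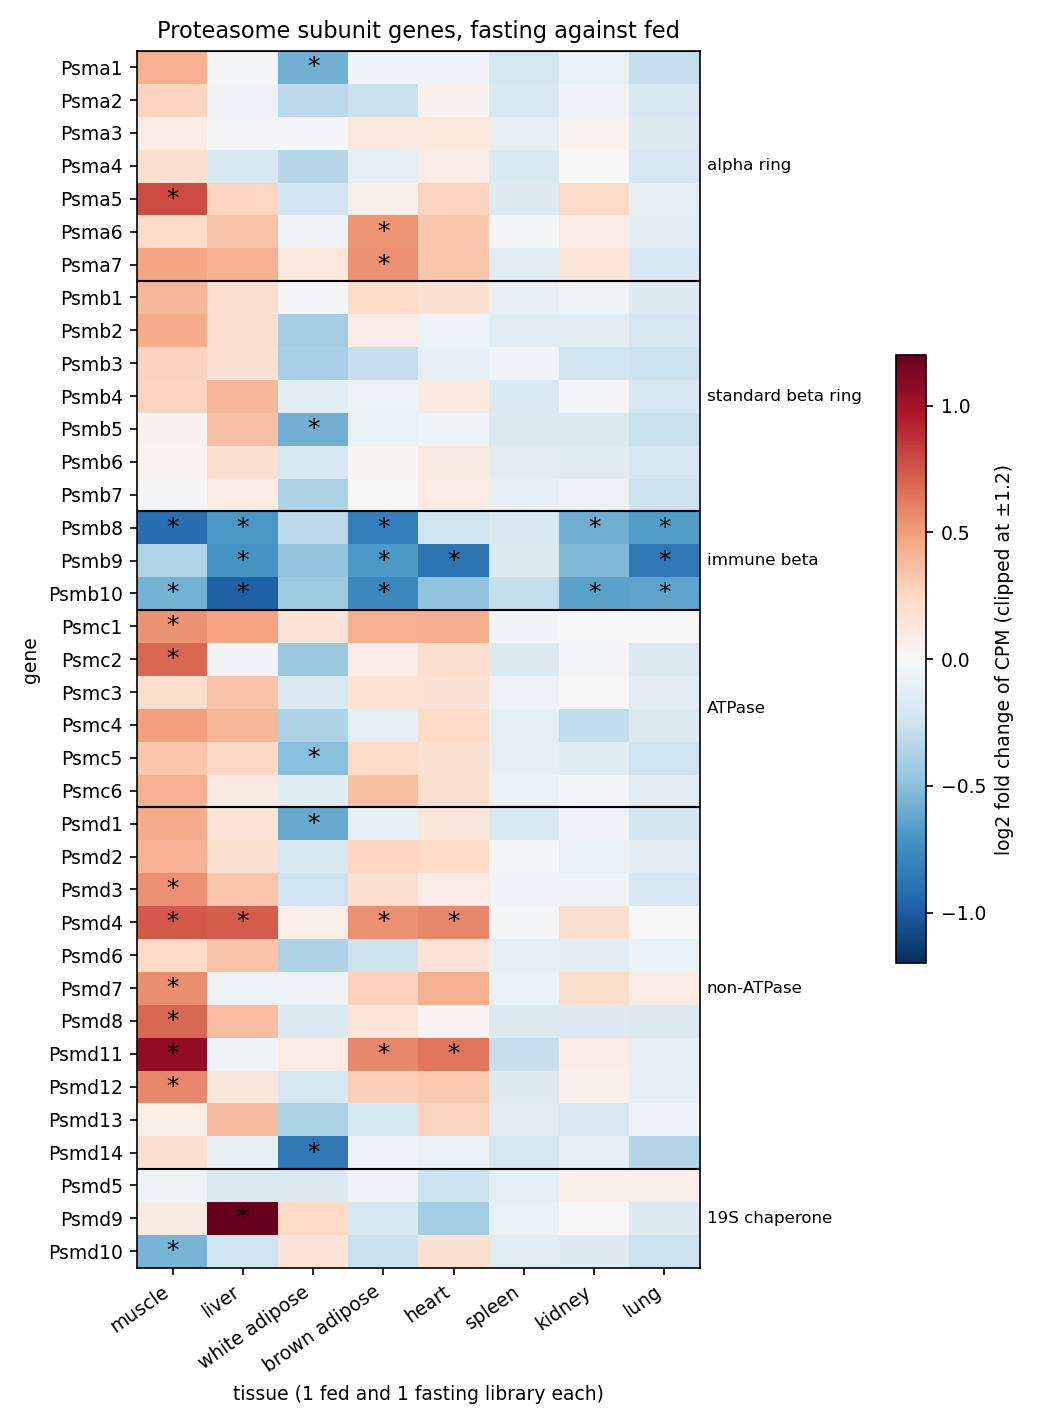
Log2 fold change of CPM, fasting against fed, of 37 members in 8 tissues (red higher and blue lower in fasting, clipped at 1.2), ordered by role, with stars for called members; Psma8 and Psmb11 are left out for low counts. The immune subunits form a blue band in all tissues but are palest in spleen, muscle holds 9 red stars, and white adipose holds 5 blue ones.

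Other genes of the pathway were taken as 7 lists with 42 genes, of which 41 were found. Across tissues 5 of the 41 fell and 1 rose, where 2.08% of all genes tested fell and 2.31% rose. Of the 10 genes of MHC class I presentation, 10 had values below 0 (median -0.31, beside -0.01 for all genes tested) and 5 fell. Irf1, a transcription factor of the interferon response, fell by 0.48 (SE 0.06, edgeR adjusted p = 0.00734), and Nlrc5, a transactivator of class I genes, fell by 0.70 (SE 0.12, edgeR adjusted p = 0.0156). The peptide transporter Tap1 fell by 0.50 and B2m, the light chain of class I, by 0.35. Tap1 was called in 5 tissues, as was Irf1, and Nlrc5 in 6. Tap1 shares 212 exonic bases with Psmb9 on the opposite strand, and Psmb8 shares 498 with Gm20496, also on the opposite strand. The strand setting decides where reads of these bases were counted. Among the activators, Psme1 and Psme2, the PA28 caps, were at -0.23 and -0.30 and did not pass (edgeR adjusted p = 0.0927 and 0.0758).

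Of 9 shuttle and unfoldase genes, Ddi2, a ubiquitin-binding protease that cleaves Nfe2l1, rose by 0.63 (SE 0.15, edgeR adjusted p = 0.0423). It was higher in 8 of 8 tissues and called in 4, going from 111 to 278 CPM in muscle, 92.4 to 164 in white adipose, 83.3 to 123 in brown adipose and 82.1 to 186 in heart. Of the regulators, Nfe2l1, the factor that restores proteasome genes when activity is low, was at 0.14 (edgeR adjusted p = 0.431), and Nfe2l2 at 0.36 (edgeR adjusted p = 0.138). No gene among the 5 assembly factors found, the 5 bound factors, the 4 ubiquitin genes, the 3 regulators and the 5 activators and inhibitor passed across tissues, and 6 of these 22 were at an unadjusted p under 0.05 in the edgeR fit, where 23.8% of all genes tested were.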

How the data were processed

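Per the labels and the study's methods, the authors made strand-specific paired-end libraries. Trimming was by fastp 0.23.2, quality control by FastQC 0.11.8, alignment by HISAT2 2.2.1.0 (GRCm38) and gene counting by featureCounts (Subread 2.0) with a GENCODE annotation. They deposited raw counts per gene and library and the gene length, an other value. Whether reads or pairs were counted is not given in the sources used here. Symbols were matched by identifier for 55144 of 55385 genes. CPM were counts divided by library totals, and intervals (95%) and the floor of 3 counts cover counting error only. Fisher's exact test ran over all genes with a count in a tissue. Across tissues, edgeR 4.0.16 (R 4.3.3) used TMM factors, filterByExpr by treatment, tissue as a block and Benjamini-Hochberg adjustment over 17296 genes, with 7 residual degrees of freedom. Since all tissues of a treatment share their mice, tissues are not independent animals, and p-values measure the spread between these libraries. DESeq2 1.42.0 was an alternative. The tests were tested on simulated data. The members and lists were chosen with earlier results of these data known. Named with values were the catalytic, immune and tissue-restricted subunits, the 2 largest changes each way per tissue among members of at least 1 CPM, called members, the 3 members nearest the threshold across tissues, and pathway genes called in 4 or more tissues. One selected pathway gene is not reported here. Versions were numpy 2.4.6, scipy 1.17.1, pandas 2.3.3, matplotlib 3.10.9 and numba 0.67.0 under Python 3.11.15.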

Additional observations from a re-analysis of the deposited data

How the results depend on the processing

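With 1 library per tissue and treatment no spread within a tissue could be measured. The 24 immune subunit values stayed below 0 under every scaling and pseudocount tried, but none of the 14 calls held at a log2 fold change above 1 or when pools were assumed to vary by a coefficient of 0.2 or 0.4, and 0 were then left.

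With TMM factors or DESeq2 size factors, the count of members that rose went from 9 to 15 in muscle and from 2 to 7 in liver, the count that fell in muscle from 3 to 1, and the count that fell in white adipose from 5 to 9 (TMM) or 10 (DESeq2). A pseudocount of 1 CPM left 1 that fell in muscle and ended the call of Psmc5 in white adipose, and totals without the 10 highest genes gave 2 that fell in heart instead of 1. At a log2 fold change above 1, 1 member rose in muscle, 1 rose in liver, 1 fell in lung, and 0 passed in the other directions and tissues. With a coefficient of variation of 0.2, 1 rose in liver, 1 fell in lung and 0 passed elsewhere, and with 0.4 only the 1 in lung was left.

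Across tissues, 0 members rose with edgeR and 2 with DESeq2's Wald test. The 3 that fell became 0 without the tissue block and 1 without both adipose tissues, and leaving out each tissue in turn gave 3 to 3 that fell and 0 to 0 that rose. The filter by treatment was taken, and the filter by the full design added, after a first fit was seen, and all 3 were called with both. The ratio of the highest to the lowest fed tissue in summed standard subunits was 1.49 and 3.46 with TMM factors. Of the 31 standard subunits, those above 0 went with TMM factors from 11 to 19 in kidney, 23 to 30 in liver and 26 to 28 in heart. Among the named values, signs turned near 0, with TMM and DESeq2 factors in that order, for Psma6 in spleen (0.0070 and 0.0042), Psmb5 in heart (0.0101 and 0.0049), Psmb7 in kidney (0.0186 and 0.0019) and Psmb7 in muscle (0.0557 and 0.0564), and with TMM for Psmb7 in brown adipose (0.0210) and Psmd4 in spleen (0.0002). The cause was not tested. Of the other named values, 691 of the alternative values kept their direction and side of the threshold, 120 no longer passed and 7 newly passed. The tissue block paired the fed and fasting library of each tissue. Within a tissue no replicate numbers were given to pair by.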
